A study of Arabidopsis thaliana with 12 samples.

Results

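The response to condition H was compared between the Arabidopsis line ape2 and its wild type, the accession Ws-2, to find the transcripts that responded more, less or in the opposite direction in ape2. All 12 arrays of the series entered this comparison, 3 for each of 4 groups, which were ape2 in H, ape2 in L, Ws-2 in H and Ws-2 in L. The title of the series places the study in a TPT mutant and concerns control of transcripts by carbohydrate and redox state. The line ape2, an insertion line in the Ws-2 background, was the only mutant line measured, and Ws-2 carries the stock code N1601. Both were sampled as unshaded mature rosette leaves at developmental stage 3.7. L and H appear in the titles without explanation and serve here as names of conditions. The labels do not state whether the 3 arrays of a group came from separate plants, and a p-value therefore covers the spread among these arrays alone, part of which may be technical.

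TPT, the triose phosphate/phosphate translocator, sits in the inner envelope of the chloroplast. It exports triose phosphates made by the Calvin-Benson cycle to the cytosol in exchange for phosphate, where they feed sucrose synthesis. Leaves without it are known to pass more of their fixed carbon through starch. The annotation used here gives TPT no probe set, so the genotype was not checked on that transcript.

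The values are Affymetrix signal intensities, 1 per probe set and array, analysed as log2(signal + 10), a scale on which a change of a dim transcript is understated. For each probe set the response is the mean in H minus the mean in L, and the difference of responses is the response in ape2 minus the response in Ws-2. A positive difference can come from a larger rise, a smaller fall or a turn from fall to rise in ape2. A probe set was tested where its signal reached 20 on at least 3 arrays, which held for 16121 probe sets, and 9025 of those have 1 gene named. A result is called where the adjusted p from limma is under 0.05. Correlations of log2 signals ran from 0.975 to 0.985 within groups and from 0.953 to 0.981 between groups. The 3 mesophyll markers measured here, RCA, PRK and SBPASE, summed to signals of 10570 to 12170 on the arrays of ape2 H and 10390 to 11390 in ape2 L, against 10920 to 12920 in Ws-2 H and 11260 to 13610 in Ws-2 L. The 3 root markers summed to between 51.9 and 96.5 on the 12 arrays.

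Transcripts that responded to H mostly did so in the same direction in both genotypes, and very few showed a difference of responses that was called. The test called 3 probe sets of 16121 (0.0186%), 2 with a positive difference (0.0124%) and 1 with a negative difference (0.0062%). At an unadjusted p under 0.05 there were 1235 (7.66%), of which 566 were positive (3.51%) and 669 negative (4.15%). H against L itself was called for 647 probe sets in ape2 (4.01%), 288 of them higher in H (1.79%) and 359 lower (2.23%). In Ws-2 it was called for 473 (2.93%), 165 higher (1.02%) and 308 lower (1.91%). These calls overlapped in 214 probe sets, 33.1% of the ape2 calls and 45.2% of the Ws-2 calls, and all 214 had the same sign in both genotypes. Of the 906 called in either genotype, 87.9% had the same sign in both, against 60.3% of all tested probe sets. Calls in 1 genotype only numbered 692, and for 1 of them, 253971_at, the difference of responses was called, while 348 had an unadjusted p under 0.05 for it. A call in ape2 without one in Ws-2, or the reverse, therefore did not by itself show a difference of responses. That difference was tested for all 692 and was not called for the others.

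**Figure D1:**
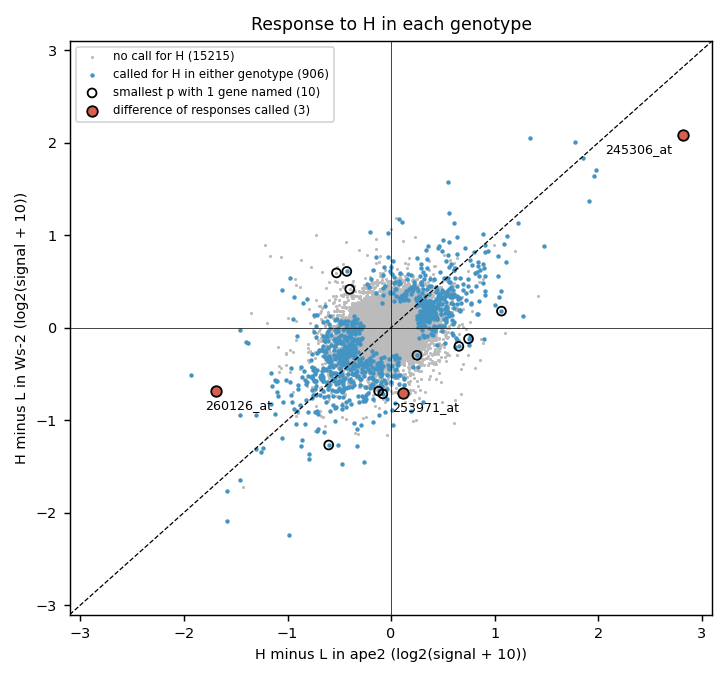
Response to H in ape2 against response to H in Ws-2 for 16121 probe sets, both as log2 differences between H and L, with blue for the 906 probe sets called for H in either genotype, open circles for the 10 named genes with the smallest p and red for the 3 called differences. Most blue points share a sign on both axes, and the 3 red points lie off the dashed line of equal response.

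The precision of the difference sets what could be seen. Its median standard error was 0.18 on the log2 scale, with 8 residual degrees of freedom before the shared prior was added. The smallest called difference was 0.74 in size. The 95% interval lay within 1 log2 unit of 0 for 90.2% of tested probe sets and within 0.5 for 42.3%, so a difference of 1 log2 unit lay outside the interval for most transcripts, while 1 of 0.5 often did not. The median standard error was 0.25 for probe sets with a mean signal under 50 and 0.12 at 200 and over.

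The called probe set with a smaller response in ape2 was 253971_at, which has no gene named in the annotation used here. It had signals of 1279, 1242 and 1511 in ape2 H and 1248, 1276 and 1176 in ape2 L, against 491, 454 and 450.01 in Ws-2 H and 764, 738 and 787 in Ws-2 L. The H arrays of Ws-2 were all below its L arrays, while those of ape2 overlapped with its L arrays, and every ape2 array was above every Ws-2 array. It fell by 0.70 in Ws-2 (adjusted p = 0.000103), and its response was 0.12 in ape2 (adjusted p = 0.467). The difference of responses was 0.82 ± 0.11 (SE; 95% interval 0.59 to 1.05; adjusted p = 0.0155).

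The other called differences were larger responses in ape2, 1 a rise and 1 a fall, again without a named gene. The probe set 245306_at had signals of 1212, 1277 and 1377 in ape2 H and 183, 164 and 174 in ape2 L, against 1566, 1578 and 1393 in Ws-2 H and 351, 337 and 358 in Ws-2 L. It rose in both genotypes, by 2.82 in ape2 and 2.08 in Ws-2, and the groups differed more in L than in H. The difference was 0.74 ± 0.10 (95% interval 0.52 to 0.96; adjusted p = 0.0177). The probe set 260126_at had signals of 78.1, 72.1 and 67.5 in ape2 H and 280.2, 231 and 260.2 in ape2 L, against 97.8, 113 and 97.2 in Ws-2 H and 183, 158 and 173 in Ws-2 L. It was highest in ape2 L and lowest in ape2 H, and the H and L arrays did not overlap in either genotype. It fell by 1.69 in ape2 and by 0.69 in Ws-2, a difference of -1.01 ± 0.14 (95% interval -1.29 to -0.72; adjusted p = 0.0155).

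A further unnamed probe set, 263046_at, had the next smallest p among negative differences without a named gene and missed the threshold. It had signals of 38.2, 46.4 and 42.6 in ape2 H and 193, 220.4 and 159 in ape2 L, against 183, 135 and 95.5 in Ws-2 H and 207, 183 and 191 in Ws-2 L. The arrays of ape2 H stood below all others, and the arrays of Ws-2 H were below those of Ws-2 L, 1 of them only just. Its response was -1.93 in ape2 and -0.51 in Ws-2, with a difference of -1.42 ± 0.24 (adjusted p = 0.0657).

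**Figure D2:**
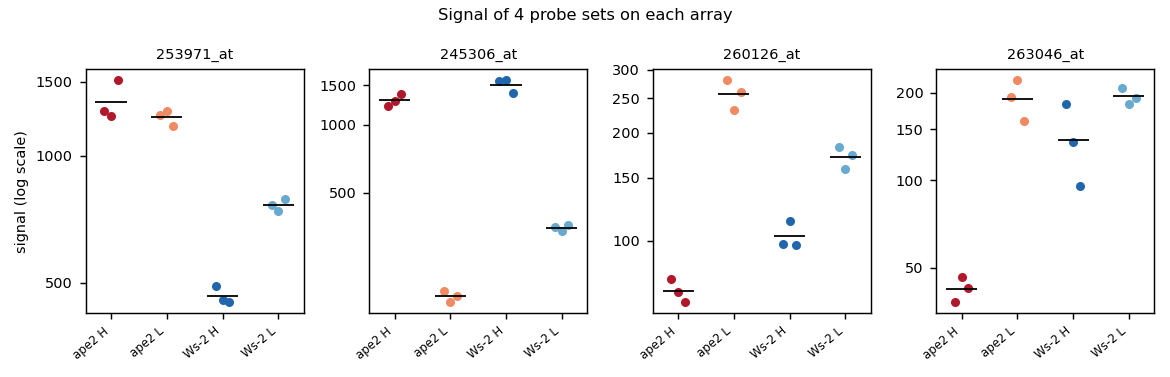
Signal on each array, on a log scale, for the 3 probe sets called for the difference of responses and for 263046_at, with points for arrays and bars for group means. The Ws-2 H arrays of 253971_at lie below its Ws-2 L arrays while the ape2 groups overlap, and the ape2 H arrays of 263046_at stand below the other groups.

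The calls depended on the prior, on single arrays and on other settings of the fit. Array weights, and a replicate block within genotype that was added later, gave more calls than the main fit. These counts are in the closing section on processing, and the labels state no pairing of arrays. With a constant prior that is not robust, 0 probe sets were called, and the adjusted p was 0.175 for each of the 3. Leaving out each array in turn gave between 0 and 7 calls, with 0 without array 2 or array 3 of Ws-2 L, 1 without array 3 of ape2 H, 6 without array 2 of ape2 H or array 1 of Ws-2 L, and 7 without array 1 of Ws-2 H. For 253971_at the adjusted p was 0.0599 without array 2 of Ws-2 L and 0.0692 without array 3, and its difference stayed between 0.74 and 0.88 over all such fits.

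In the main fit no probe set with 1 gene named was called for the difference of responses. The text therefore gives the 10 with the smallest p, of which 3 responded more in ape2, 4 less and 3 in the opposite direction. A response is termed opposite here where the signs differ and the smaller response is at least 0.3 in size, and the others are termed more or less by the size of the response in ape2. None of these 10 differences passed the test in the main fit, and their adjusted p-values ran from 0.0657 to 0.118. Some of the 10 were called under other settings of the fit, which are given in the closing section on processing.

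The genes that responded more in ape2 rose there and had no called response in Ws-2. AT1G13650 had signals of 278, 271 and 326 in ape2 H and 193, 177 and 174 in ape2 L, against 141, 185 and 166 in Ws-2 H and 175, 199.99 and 193 in Ws-2 L. Each ape2 H array was above all other arrays. The gene rose by 0.65 in ape2 (adjusted p = 0.00151), with -0.20 in Ws-2 (adjusted p = 0.407) and a difference of 0.86 ± 0.14 (adjusted p = 0.0657). AT3G26510 had signals of 522, 521 and 599.7 in ape2 H and 338, 344 and 286 in ape2 L, against 266, 188 and 206 in Ws-2 H and 257, 228 and 228 in Ws-2 L. Its ape2 H arrays were again above all others, while the Ws-2 groups overlapped. The gene rose by 0.75 in ape2 (adjusted p = 0.00131), with -0.12 in Ws-2 and a difference of 0.87 ± 0.16 (adjusted p = 0.0807). AT1G57590 had signals of 146, 118 and 153 in ape2 H and 60.96, 68.7 and 53.7 in ape2 L, against 155, 128 and 168 in Ws-2 H and 112, 139 and 142 in Ws-2 L. Here ape2 L was the group that stood apart, below all other arrays, and the other groups overlapped. The gene rose by 1.07 in ape2 (adjusted p = 0.000182), with 0.18 in Ws-2 and a difference of 0.89 ± 0.18 (adjusted p = 0.118).

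The genes that responded less in ape2 all fell in Ws-2. UGT88A1, a UDP-glucosyltransferase, had signals of 652, 585 and 664 in ape2 H and 666, 649 and 754 in ape2 L, against 355, 346 and 333 in Ws-2 H and 526, 612 and 549 in Ws-2 L. Its Ws-2 H arrays were the lowest, and the ape2 groups overlapped. It fell by 0.69 in Ws-2 (adjusted p = 0.000182), with -0.12 in ape2 and a difference of 0.57 ± 0.11 (adjusted p = 0.118). AT2G29290 had signals of 652, 550.2 and 689.8 in ape2 H and 669.6, 624 and 701 in ape2 L, against 243, 259.5 and 236 in Ws-2 H and 406, 415 and 412 in Ws-2 L. The ape2 groups overlapped and lay above both Ws-2 groups. It fell by 0.72 in Ws-2 (adjusted p = 0.000161), with -0.08 in ape2 and a difference of 0.64 ± 0.12 (adjusted p = 0.0807). AT5G60680 had signals of 153, 164 and 167 in ape2 H and 256, 264 and 230.2 in ape2 L, against 46.5, 42.7 and 44.97 in Ws-2 H and 112, 128 and 126 in Ws-2 L. This gene fell in both genotypes, by 0.60 in ape2 and by 1.27 in Ws-2, and H and L did not overlap in either. Its difference was 0.67 ± 0.12 (adjusted p = 0.0807). AT1G75460 had signals of 1053, 1052 and 1204 in ape2 H and 955, 915 and 904 in ape2 L, against 628, 562 and 531 in Ws-2 H and 683, 713 and 724 in Ws-2 L. Its H arrays lay above its L arrays in ape2 and below them in Ws-2. The gene fell by 0.30 in Ws-2 (adjusted p = 0.0429), its response in ape2 was 0.25 (adjusted p = 0.0789), and the difference was 0.55 ± 0.11 (adjusted p = 0.118).

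The genes of opposite response were all lower in H in ape2 and higher in H in Ws-2, and only 1 of their 6 responses was called. AT3G57450 had signals of 88.3, 95.1 and 64.4 in ape2 H and 105, 126 and 109 in ape2 L, against 121, 139 and 135 in Ws-2 H and 89.1, 73.7 and 86.7 in Ws-2 L. The groups crossed without overlap of H and L in either genotype. It rose by 0.61 in Ws-2 (adjusted p = 0.0122), its response in ape2 was -0.43 (adjusted p = 0.0672), and the difference was -1.04 ± 0.17 (adjusted p = 0.0657). AT2G30930, which was dimmer, had signals of 33.6, 36.8 and 29.3 in ape2 H and 51.9, 54.04 and 50.5 in ape2 L, against 62.7, 55.5 and 41.1 in Ws-2 H and 39.5, 24.002 and 32.2 in Ws-2 L. Its responses were -0.53 in ape2 and 0.59 in Ws-2, with a difference of -1.12 ± 0.22 (adjusted p = 0.118). AT5G47530 had signals of 41.5, 35.4 and 37.8 in ape2 H and 55.1, 53.3 and 52.1 in ape2 L, against 43.6, 49.3 and 46.6 in Ws-2 H and 29.9, 38.1 and 29.6 in Ws-2 L. Its responses were -0.40 in ape2 and 0.41 in Ws-2, with a difference of -0.81 ± 0.16 (adjusted p = 0.118). In both of these genes ape2 L and Ws-2 H were the brighter groups.

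**Figure D3:**
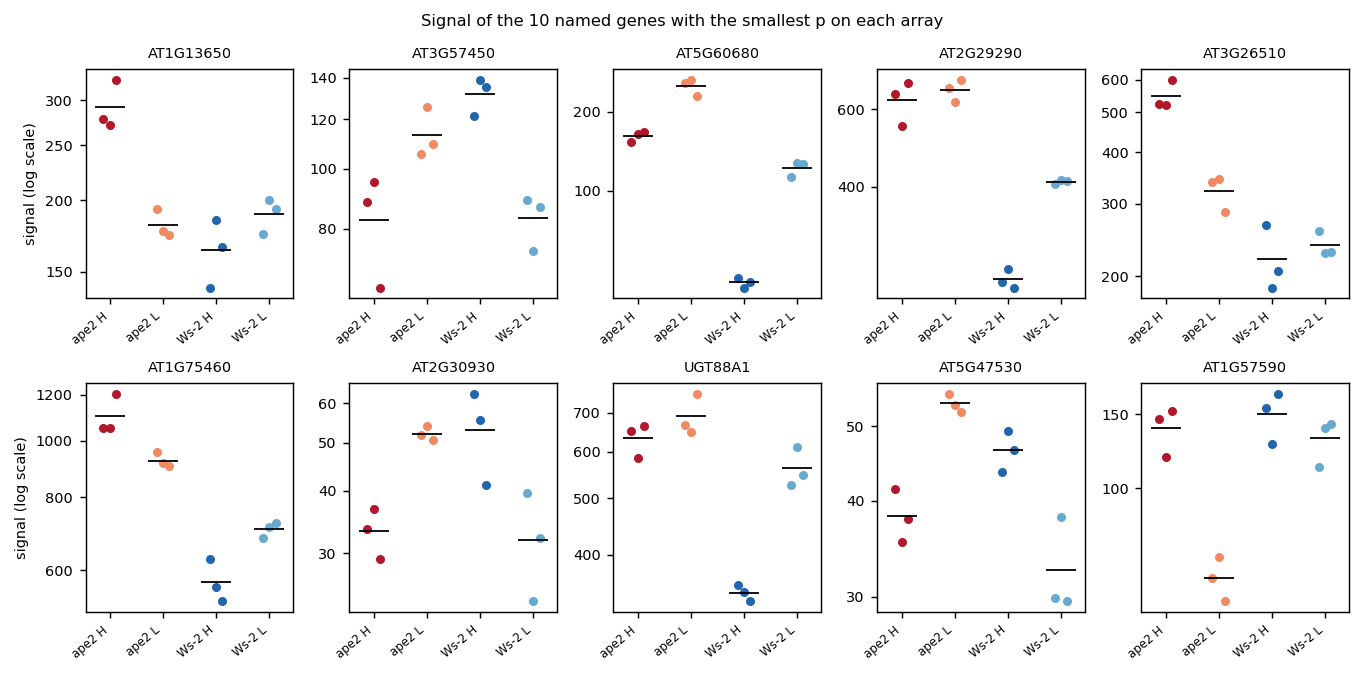
Signal on each array, on a log scale, for the 10 genes with the smallest p for the difference of responses, with points for arrays and bars for group means. AT3G57450, AT2G30930 and AT5G47530 have H below L in ape2 and above L in Ws-2.

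Few tested probe sets met the definition of opposite, which asks for a smaller response of at least 0.3 in size. The SD of all responses was 0.24 in ape2 and 0.22 in Ws-2. By sign alone, 60.3% of all tested probe sets had the same sign in both genotypes, and most of the others fell short of this limit. AT1G75460, with 0.25 in ape2 and -0.30 in Ws-2, is therefore counted as less. The counts below do not show how often the direction of the response changed. At an unadjusted p under 0.05, 664 probe sets responded more in ape2 (53.8%), 507 less (41.1%) and 64 in the opposite direction (5.18%), against 53.4%, 46.0% and 0.602% of all tested probe sets. An opposite response implies a large difference, so its larger share here follows in part from the definition. Of the 64, 20 had a positive difference and 44 a negative one, against 566 and 669 of the 1235 probe sets at that p. The arrays of H and L stood apart in both genotypes for 11 of the 64. H against L was called in at least 1 genotype for 6 of the 64, against 906 of all 16121 tested probe sets. It was called in both for 0 of the 64, against 214 of all tested. Limma called 0 of the 64 for the difference itself, against 3 of all tested.

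A wider set of genes was read after its values were seen, the 33 probe sets with 1 gene and an unadjusted p under 0.001. They include the 10 above, and 19 of the 33 had a positive difference and 14 a negative one. Of these, 13 responded more in ape2, 15 less and 5 in the opposite direction. PUB19, a U-box ubiquitin ligase, had signals of 215, 216 and 239 in ape2 H and 118, 109.9 and 132 in ape2 L, against 176, 165 and 177 in Ws-2 H and 124, 150.2 and 146 in Ws-2 L. Its arrays of H were above those of L in both genotypes, with responses of 0.84 in ape2 (adjusted p = 7.98e-05) and 0.29 in Ws-2 (adjusted p = 0.131) and a difference of 0.56 ± 0.13 (adjusted p = 0.206). AT4G21620 fell in both genotypes, by 0.76 in ape2 and by 0.29 in Ws-2, with a difference of -0.48 ± 0.10 (adjusted p = 0.153). AT5G47390, listed in RefSeq with the synonyms MYBH and KUA1 and known as a MYB-related transcription factor, had signals of 173, 158 and 174 in ape2 H and 171, 192 and 183 in ape2 L, against 92.5, 83.1 and 79.4 in Ws-2 H and 134, 137 and 139.5 in Ws-2 L. It fell by 0.63 in Ws-2 (adjusted p = 0.000533), with -0.10 in ape2 and a difference of 0.53 ± 0.12 (adjusted p = 0.166). AT1G61890 showed the mirror pattern, rising by 0.72 in Ws-2 with 0.02 in ape2 and a difference of -0.70 ± 0.16 (adjusted p = 0.167). AT1G78020, which had signals of 508 to 529.5 in ape2 H and 339 to 373 in ape2 L, was at 985 to 1137 on the 6 Ws-2 arrays. It rose by 0.53 in ape2, and its difference was 0.47 ± 0.10 (adjusted p = 0.136).

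Genes of the jasmonate pathway, whose hormone is made from plastid lipids and controls defence and wound responses, had the lowest median difference among the lists with at least 4 tested members. Only 5 of the 33 genes in the list were tested. Of these, 4 had a negative difference, and the median was -0.34, against -0.02 over all tested probe sets. The median is the value of THI2.1, a thionin, which was dim (95% interval -0.96 to 0.27), and the more negative members are PDF1.2 and PDF1.2b. In H, 1 of the 5 rose in ape2 and 3 rose in Ws-2, where 1.79% and 1.02% of all tested probe sets rose. PDF1.2, a plant defensin used as a marker of jasmonate and ethylene signalling, had signals of 316, 331 and 393 in ape2 H and 357, 471 and 333 in ape2 L, against 270.4, 189.5 and 214 in Ws-2 H and 139.7, 114 and 128 in Ws-2 L. Its Ws-2 H arrays were above its Ws-2 L arrays, and the ape2 groups overlapped at a higher level. It rose by 0.77 in Ws-2 (adjusted p = 0.00654), with -0.14 in ape2 and a difference of -0.91 ± 0.20 (adjusted p = 0.159). PDF1.2b, a near-identical relative whose probe set may also detect PDF1.2 transcript, rose by 0.75 in Ws-2 with 0.25 in ape2 and a difference of -0.51 ± 0.20 (adjusted p = 0.586), and is not separate evidence. JMT, which makes methyl jasmonate, rose in both genotypes, by 0.84 in ape2 and 0.71 in Ws-2, with a difference of 0.13 ± 0.15. MYC3, a bHLH transcription factor of jasmonate signalling that is not in the list, had signals of 52.7, 56.8 and 50.1 in ape2 H and 98.03, 78.5 and 59.6 in ape2 L, against 75.1, 88.3 and 95.5 in Ws-2 H and 69.5, 63.03 and 65.4 in Ws-2 L. Its responses were -0.47 in ape2 and 0.34 in Ws-2, an opposite pattern that did not pass the test for the difference (-0.80 ± 0.19; adjusted p = 0.221).

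Plastid-encoded transcripts, which code for photosystem, electron transport, ATP synthase and ribosomal subunits made inside the chloroplast, had small positive differences of responses, none of them called. Of 69 tested plastid genes, 66 had a positive difference (95.7%), with a median of 0.19, against 46.5% and -0.02 over all tested probe sets. The plastid genes are bright, and among the 588 other probe sets with a mean signal of 1000 or more 70.1% were positive, with a median of 0.06. By limma 0 of them were called, and 11 had an unadjusted p under 0.05 (15.9%), all with a positive difference, where 7.66% of all tested probe sets had such a p and 3.51% had it with a positive difference. The median response was 0.06 in ape2 and -0.14 in Ws-2. All 15 photosystem II genes and all 15 ribosomal protein genes were positive, with medians of 0.23 in each class, as were 5 of 5 photosystem I genes (0.11), 6 of 6 ATP synthase genes (0.17), 5 of 6 cytochrome b6f genes (0.15), 9 of 10 NDH genes (0.16) and 3 of 4 RNA polymerase genes (0.14).

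The mean log2 signal over the 69 genes was 10.545, 10.395 and 10.629 in ape2 H and 10.363, 10.51 and 10.515 in ape2 L, against 10.469, 10.381 and 10.354 in Ws-2 H and 10.462, 10.602 and 10.635 in Ws-2 L. The 4 groups overlapped on this mean. Genes on the same arrays share the deviations of those arrays and are not independent observations. Group means were 10.52 ± 0.12 in ape2 H and 10.46 ± 0.09 in ape2 L, against 10.40 ± 0.06 in Ws-2 H and 10.57 ± 0.09 in Ws-2 L (SD, n = 3), a difference of responses of 0.23. The plastid genes had a median signal of 1692, against 68.2 over all tested probe sets. The median difference also ran with brightness over all probe sets, at -0.06 under a mean signal of 50, -0.02 between 50 and 200 and 0.03 at 200 and over, and was 0.07 for the 640 probe sets at 1000 and over, which include plastid genes. The part of brightness in the plastid values was not tested.

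Single plastid genes had larger differences than the median. The gene rbcL, which encodes the large subunit of Rubisco, had signals of 2713, 2553 and 3261 in ape2 H and 2180.2, 2306 and 2542 in ape2 L, against 1729.5, 1408 and 1544 in Ws-2 H and 1619, 1893 and 2057 in Ws-2 L. The ape2 H arrays were above all others, and Ws-2 H overlapped with Ws-2 L. Its responses were 0.27 in ape2 and -0.25 in Ws-2, neither called, with a difference of 0.52 ± 0.15 (adjusted p = 0.362). The gene ndhF, for a subunit of the NDH complex, fell by 0.44 in Ws-2 (adjusted p = 0.0324) with 0.05 in ape2 and a difference of 0.49 ± 0.15 (adjusted p = 0.408). It was the only plastid gene whose response to H was called in a genotype. The photosystem II gene psbN had the largest difference of the list, 0.99 ± 0.35 (adjusted p = 0.555), with responses of 0.44 in ape2 and -0.55 in Ws-2 and wide spread within ape2 L.

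**Figure D4:**
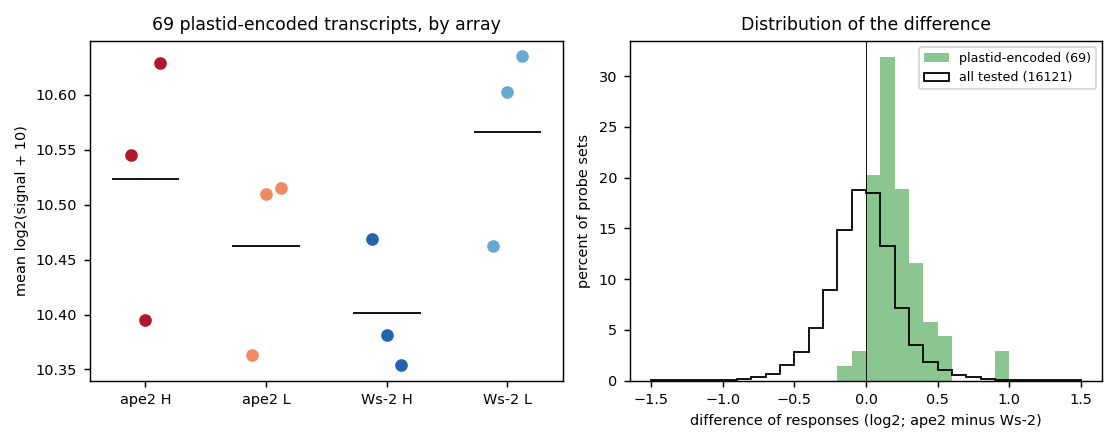
Left, mean log2(signal + 10) of 69 plastid-encoded genes on each array, with bars for group means, and right, the distribution of the difference of responses for these genes (filled) and for all 16121 tested probe sets (line), in percent. The array means of the 4 groups overlap, and 66 of the 69 gene differences lie above 0.

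Outside the plastid genome the pathway lists held 130 tested genes, of which 15 had an unadjusted p under 0.05 (11.5%), 9 positive and 6 negative, against 7.66% of all tested probe sets. None was called by limma. These lists, the jasmonate list among them, were chosen with earlier results of these data known. Their shares and medians are therefore a description and no test of the lists. They also cover the tested members alone, which in most lists were a minority of the genes listed. The members named below were chosen by that p after it was seen, or, where their p was larger, to give values of genes with a response to H or of the same family. Nuclear genes of the photosystems and electron transport were positive in 7 of 7 cases, with a median of 0.12 and no unadjusted p under 0.05. Each had a mean signal over 1000, where 70.1% of probe sets outside the plastid genome were positive, against 46.5% of all tested.

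Among cold and abscisic acid responsive genes, both COR15 genes had less negative responses in ape2. These encode chloroplast proteins that protect membranes during freezing. COR15A had signals of 1644, 1349 and 1781 in ape2 H and 1832, 1718 and 1932 in ape2 L, against 1585, 1471 and 1293 in Ws-2 H and 2139.7, 2035 and 2698 in Ws-2 L. Its Ws-2 H arrays were below its Ws-2 L arrays, and it fell by 0.65 in Ws-2 (adjusted p = 0.00537), with -0.21 in ape2 and a difference of 0.44 ± 0.16 (adjusted p = 0.548). COR15B fell in both genotypes, by 0.41 in ape2 and by 0.79 in Ws-2, with a difference of 0.38 ± 0.15 (adjusted p = 0.574). Of the 32 genes in the list only 5 were tested. They had 2 positive and 3 negative differences and a median of -0.08.

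In the autophagy list 12 of 24 genes were tested. Of these, 10 were positive, with a median of 0.17, against 46.5% and -0.02 over all tested probe sets. An unadjusted p under 0.05 was reached by 1 of the 12, near the share of 7.66% over all tested probe sets. ATG8E, a ubiquitin-like protein that coats the forming autophagosome, had signals of 84.96, 109 and 112 in ape2 H and 89.3, 95.6 and 102 in ape2 L, against 17.5, 18.95 and 19.5 in Ws-2 H and 31.2, 33.2 and 37.3 in Ws-2 L. It fell by 0.61 in Ws-2 (adjusted p = 0.00780), where its mean in H was under a signal of 20, with 0.07 in ape2 and a difference of 0.69 ± 0.16 (adjusted p = 0.221). The differences of the other ATG8 members named by symbol were 0.28 for APG8H, 0.25 for ATG8D, 0.23 for ATG8F, 0.21 for ATG8C, 0.19 for APG8A, 0.15 for ATG8H, -0.03 for ATG8G and -0.10 for ATG8B, and none of their responses was called.

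In the flavonoid list AT1G23390 had signals of 363, 477 and 396 in ape2 H and 445, 528 and 424 in ape2 L, against 113, 69.2 and 74.4 in Ws-2 H and 169, 202 and 172 in Ws-2 L. It fell by 1.02 in Ws-2 (adjusted p = 0.00148), while its ape2 arrays overlapped between H and L with a response of -0.18, and the difference was 0.85 ± 0.21 (adjusted p = 0.279). UGT78D2, a flavonoid glucosyltransferase, had a difference of -0.33 ± 0.13 (adjusted p = 0.575). The median of the 6 genes was -0.07, with 2 positive and 4 negative.

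Cell wall genes had differences in both directions, with a median of -0.15 over 8 tested genes. The expansin EXPA8, which loosens walls, fell in both genotypes, by 1.01 in ape2 and by 0.56 in Ws-2, with a difference of -0.45 ± 0.18 (adjusted p = 0.594). EXPA15 fell by 0.39 in ape2 (adjusted p = 0.0484), with -0.07 in Ws-2 and a difference of -0.32 ± 0.15. TBL26, of a family of wall polysaccharide acetyltransferases, had signals of 1386, 1258 and 1437 in ape2 H and 746, 794 and 748 in ape2 L, against 2727, 2634 and 2607 in Ws-2 H and 1799.6, 1950.1 and 2087 in Ws-2 L. It rose in both genotypes, by 0.82 in ape2 and 0.45 in Ws-2, and its difference was 0.38 ± 0.10 (adjusted p = 0.284). XTH16, a xyloglucan endotransglucosylase/hydrolase, had a difference of 0.69 ± 0.26 (adjusted p = 0.561) with no called response. CSLA01, a glucomannan synthase of the cellulose synthase-like family, rose by 1.86 in ape2 and 1.83 in Ws-2, a difference of 0.02 ± 0.27. Its mean signals were 177 ± 42.8 in ape2 H and 41.6 ± 10.04 in ape2 L, against 857 ± 62.5 in Ws-2 H and 238 ± 56.3 in Ws-2 L (SD, n = 3).

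Genes of sugar transport, starch and sugar response gave mixed values. SWEET2, a vacuolar sugar transporter, had responses of -0.23 in ape2 and 0.10 in Ws-2, with a difference of -0.34 ± 0.12 (adjusted p = 0.498). AT1G62660 rose by 0.60 in ape2 (adjusted p = 0.0492), with 0.04 in Ws-2 and a difference of 0.56 ± 0.23 (adjusted p = 0.597). SAG29, a plasma membrane SWEET sugar transporter, rose in both genotypes, by 1.98 in ape2 and 1.71 in Ws-2, with a difference of 0.27 ± 0.33. It was dim in ape2 L, with a mean signal under 20. APL3, a large subunit of the first committed enzyme of starch synthesis, rose by 0.59 in ape2 (adjusted p = 0.00519) with 0.33 in Ws-2, and the difference of 0.26 ± 0.15 was not called (adjusted p = 0.732). BZIP53, a transcription factor of the carbon starvation response, had a difference of 0.33 ± 0.15 (adjusted p = 0.650) and no called response. CCL, a light and clock regulated gene, fell by 0.50 in Ws-2 (adjusted p = 0.0178), with -0.09 in ape2 and a difference of 0.42 ± 0.15 (adjusted p = 0.555).

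A few list genes called for H in both genotypes, named here as contrasts, had differences close to 0. Others called in both, such as AT5G60680, EXPA8, COR15B and TBL26, had the larger differences given above. LHCB4.3, a minor antenna protein of photosystem II, rose by 0.44 in ape2 and 0.39 in Ws-2, and the difference was 0.05 ± 0.09 (95% interval -0.15 to 0.24). PORB, a protochlorophyllide oxidoreductase, fell by 0.46 in ape2 and by 0.55 in Ws-2, with a difference of 0.09 ± 0.10 (95% interval -0.12 to 0.30). For JMT the interval was -0.19 to 0.45, so differences of such sizes are not excluded by these data.

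**Figure D5:**
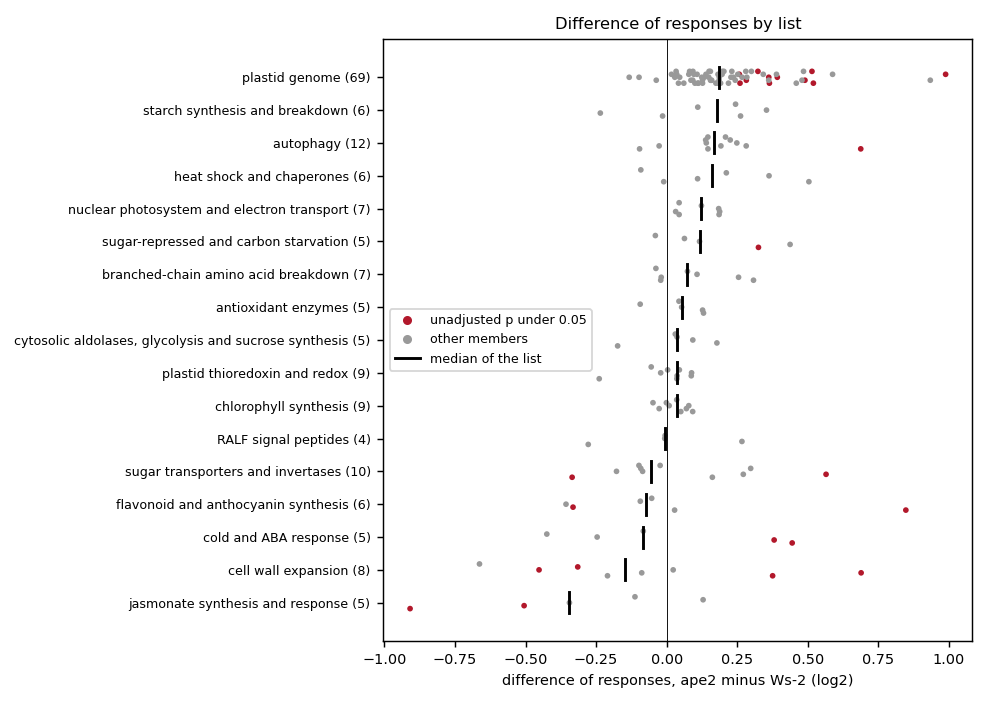
Difference of responses, ape2 minus Ws-2 on the log2 scale, for the genes of 17 lists with at least 4 tested members, with red points for an unadjusted p under 0.05 and bars for medians. List medians run from -0.34 for the jasmonate list to 0.19 for the plastid genome, and no gene is called.

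The response as a whole was also compared in size. Averaged over genotypes, H against L was called for 1327 probe sets (8.23%), 588 of them higher in H (3.65%) and 739 lower (4.58%). Of the 588, 65.0% responded more in ape2, against 53.7% of all tested probe sets, with median responses of 0.33 in ape2 and 0.27 in Ws-2 and a median difference of 0.06. Of the 739, 51.8% responded more in ape2, with medians of -0.38 in ape2 and -0.39 in Ws-2. The mean log2 signal of the 588 minus that of the 739 was 0.970 ± 0.030 in ape2 H and 0.132 ± 0.053 in ape2 L, against 1.21 ± 0.032 in Ws-2 H and 0.425 ± 0.020 in Ws-2 L (SD, n = 3). The span between H and L was thus 0.838 in ape2 and 0.781 in Ws-2, at a lower level in ape2 in both conditions. These probe sets were chosen by their mean response, and their sizes are a description.

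RNA integrity and cell type markers were set beside the comparison. The actin control, read as its 3' probe set over its 5' probe set, had a ratio of 2.41 ± 0.12 in ape2 H and 2.73 ± 0.21 in ape2 L, against 2.63 ± 0.36 in Ws-2 H and 2.98 ± 0.23 in Ws-2 L, so that it was lower in H by 0.312 in ape2 and by 0.353 in Ws-2. With this ratio as a covariate all 3 calls stayed, and AT1G13650 was called as well (adjusted p = 0.0223). The ratio changed by similar amounts in both genotypes, so this covariate could move the difference of responses little. The GAPDH ratio, read in the same way, changed from L to H by -0.100 in ape2 and by -0.195 in Ws-2, and was not used as a covariate. The 2 guard cell markers summed to signals of 489.7 to 614 in ape2 H and 416 to 554 in ape2 L, against 418 to 467 in Ws-2 H and 396 to 421 in Ws-2 L. Of 10 cell type markers tested, none had an unadjusted p under 0.05 for the difference of responses. As 7.66% of all tested probe sets had such a p, so few markers say little. The vascular, trichome and epidermis, and senescence marker lists had no measured gene. Among the 12 markers measured, none was listed at 0. The part of cell composition in the results was not tested. In whole leaves, fewer cells of a type and less RNA per cell cannot be told apart.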

How the data were processed

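The arrays hold biotin-labelled total RNA, 1 sample each. The authors deposited MAS5 signal intensities on a linear scale, per the submitters' processing notes and the values, and the MAS5 version is not given in the sources used here. MAS5 scales each array by itself, so a change shared by most transcripts is not visible. Of 22810 probe sets, 64 are controls and were left out. The annotation names 1 gene for 13513, of which 13436 matched RefSeq by locus, several for 503 and none for 8730.

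Each array was set to a 2% trimmed mean of 100 and log2(signal + 10) was fitted in R 4.3.3 with limma 3.58.1 as 4 group means over 12 arrays, with a robust prior that follows intensity. The difference of responses was a contrast of this fit, two-sided, with Benjamini-Hochberg adjustment over 16121 probe sets, while 6625 were removed for low signal. The script was tested on simulated data. The number of arrays limits the precision.

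Genes were named where called, by size and kind, and otherwise by the 10 smallest p-values with 1 gene; up to 2 probe sets without a gene in each direction were given by ID. Genes at an unadjusted p under 0.001 and list members under 0.05 were named after their values were seen, as were contrast genes such as JMT. A list takes the brightest probe set of each gene, and 29 pathway lists were read by counts and medians. The comparison, members and lists were chosen with earlier results of these data known. The alternatives changed the offset (1 or 32), the filter (none, or a signal of 50), the scaling (quantile, or none beyond the deposited one) and the prior (constant), or added array weights, a replicate block or the actin ratio, or left out 1 array.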

Additional observations from a re-analysis of the deposited data

Results flagged for a closer look

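The 3 called probe sets were marked because the test of the difference between the genotypes in their response to H was past the threshold. The difference was 0.82 for 253971_at (less in ape2), 0.74 for 245306_at (more in ape2, upward) and -1.01 for 260126_at (more in ape2, downward), all on the log2 scale, with adjusted p-values of 0.0155, 0.0177 and 0.0155 from limma. Each has 3 arrays per group, and no gene is named for any of them here. With a constant prior the adjusted p was 0.175 for each. Without array 3 of ape2 H the adjusted p was 0.0882 for 245306_at and 0.0806 for 260126_at. Without array 3 of Ws-2 L it was 0.092 for 245306_at and 0.0692 for both 253971_at and 260126_at.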

How the results depend on the processing

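The main count of 3 called differences became 0 with a constant prior that is not robust, where 1202 had an unadjusted p under 0.05, and 10 with array weights (7 higher and 3 lower). It was 4 with an offset of 1, with no filter and with the actin ratio as a covariate, and 3 with the offset of 32, the filter at 50, quantile normalization and no rescaling. Leaving out each array in turn gave from 0 to 7 calls. The 4 probe sets given by ID and the 33 genes at an unadjusted p under 0.001 kept the sign of their difference in each of the 23 alternatives in which they were tested. They were picked by a small p in these same arrays, so a kept sign was likely beforehand and is no separate support. The other genes named from lists were not recomputed there. Without array 2 of Ws-2 L the adjusted p was 0.0599 for all 3 called probe sets. Single losses were 0.0515 for 260126_at without array 1 of ape2 L, and 0.057 without array 2 of ape2 L and 0.056 without array 3 of Ws-2 H for 245306_at. AT1G13650, AT3G57450, AT2G29290 and AT3G26510 were called with array weights, each at 0.049. The mean difference of the plastid genes stayed between 0.17 and 0.29. The median difference of probe sets higher in H lay between 0.05 and 0.08, and that of those lower in H between -0.02 and 0.02. With the replicate number as a block 2 were called, and 245306_at was lost (adjusted p = 0.0678). Deviations of same-numbered arrays correlated at -0.28 to 0.37, with 3 of 18 pairs over 0.1, and the labels state no pairing, so the numbers were not taken to pair the arrays. Among pairs of other genotype and other number, 7 of 24 were over 0.1, up to 0.27. Deviations within a group sum to 0, so the counts of same-numbered and other-numbered pairs are linked. Within a genotype all 6 same-numbered pairs were positive (0.04 to 0.37), against 3 of 12 with other numbers. This is only a hint from the data that pairing within genotype is possible. A replicate block within genotype, added after this was seen, called 19 (14 higher and 5 lower), among them all 3 of the main count, 263046_at, AT1G13650, AT3G57450, AT2G29290, AT3G26510, AT3G15260 and AT4G34950. Standard errors were largest for dim probe sets, which limits what could be called there. The causes of these shifts were not tested.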

Other observations

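Some lists held no gene with an unadjusted p under 0.05 for the difference of responses. With 7.66% of all tested probe sets at such a p, this says little for lists of so few tested genes. Among 9 genes each of chlorophyll synthesis and of plastid thioredoxin and redox control, 6 were positive in each list, with medians of 0.04 in both. Of 7 genes of branched-chain amino acid breakdown, 4 were positive with a median of 0.07. The 5 antioxidant enzymes had a median of 0.05. XPT, the only plastid envelope translocator with a named probe set here, had a difference of -0.22 with responses of -0.02 in ape2 and 0.20 in Ws-2, and none of them was called.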
